A study of Mus musculus with 14 samples.

Results

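Described here are 51 genes of the synaptic vesicle and of transmitter release from the presynaptic terminal, chosen by symbol from a list of release proteins. They comprise 3 synapsins, 6 other vesicle membrane proteins, 11 synaptotagmins and Doc2 genes, 10 SNARE proteins and SNARE regulators, 14 Rab3 and active zone genes, 2 glutamate loaders of the vesicle and 5 endocytosis genes. All 51 were found among the 22485 gene symbols of the deposited count table. All 51 also passed the filter on low counts, which kept 13063 genes. By gene identifier, all 51 were matched to the GENCODE M21 annotation of GRCm38, where they lie on 19 chromosomes.

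The 14 libraries came from bulk hippocampal tissue of C57BL/6 mice of WT genotype, cut by subregion into dentate gyrus (DG), CA3 and CA1. The 7 dissociated samples were incubated for 75 min with pronase, a blend of proteases, at 1 mg/ml and triturated in medium with 1% fetal bovine serum. The 7 control samples were homogenised without that step. The design asks how enzymatic dissociation, the usual first step of single-cell work, alters measured RNA. By label, CA1 had 3 dissociated and 3 control libraries, CA3 had 2 and 2, and DG had 2 and 2. The authors' sample table lists 1 mouse for all 14 libraries, so p-values here reflect how far pieces of tissue from 1 animal differ. No age is given in the sources used here.

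At a presynaptic terminal, vesicles are filled with transmitter, tethered by synapsins, docked and primed at the active zone, and fused with the plasma membrane when calcium binds a synaptotagmin. Fusion is driven by the SNARE proteins, after which Nsf and its adaptors take the SNARE complex apart and endocytosis recovers the membrane. In the hippocampus the principal cells, the pyramidal cells of CA1 and CA3 and the granule cells of DG, release glutamate, and many release proteins come as families of paralogs whose members differ between cell types.

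The promoters of Sv2b, Sv2c and Rab3c are printed because these 3 genes are among those called between regions in the results further on. Sv2b and Sv2c are paralogous glycoproteins of the vesicle membrane, and Rab3c is a small GTPase of the vesicle. Each sequence is the RefSeq promoter window of GRCm38.p6, from 250 bases before to 50 after the annotated start, written in the direction of transcription. The Sv2b window lies at chr7:75309213-75309512 on the minus strand and is the farthest upstream of 4 listed for that gene. The Sv2c window lies at chr13:96132528-96132827 and the Rab3c window at chr13:110280157-110280456, both on the minus strand. Capitals mark matches, on either strand, to the E-box CAGCTG, the GC box GGGCGG or the cyclic AMP response element TGACGTCA.
Sv2b: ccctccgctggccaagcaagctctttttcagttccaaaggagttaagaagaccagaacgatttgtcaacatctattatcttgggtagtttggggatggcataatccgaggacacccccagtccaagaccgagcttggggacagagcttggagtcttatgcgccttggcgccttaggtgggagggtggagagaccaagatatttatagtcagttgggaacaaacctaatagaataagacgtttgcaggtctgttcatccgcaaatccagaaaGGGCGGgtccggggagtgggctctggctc
Sv2c: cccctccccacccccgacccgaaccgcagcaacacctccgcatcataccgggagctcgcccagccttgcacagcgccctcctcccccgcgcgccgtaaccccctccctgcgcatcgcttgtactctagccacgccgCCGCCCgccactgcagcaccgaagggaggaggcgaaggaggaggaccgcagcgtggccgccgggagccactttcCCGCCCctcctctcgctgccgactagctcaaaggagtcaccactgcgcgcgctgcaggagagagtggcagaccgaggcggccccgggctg
Rab3c: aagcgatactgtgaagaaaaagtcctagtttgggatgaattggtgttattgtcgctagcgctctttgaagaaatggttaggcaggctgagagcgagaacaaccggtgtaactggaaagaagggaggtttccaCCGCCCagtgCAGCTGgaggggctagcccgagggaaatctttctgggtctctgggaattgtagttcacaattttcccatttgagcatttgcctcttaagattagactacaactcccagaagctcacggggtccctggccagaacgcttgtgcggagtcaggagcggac
The Sv2b window held 1 GC box, the Sv2c window 2 GC boxes, and the Rab3c window 1 E-box and 1 GC box. GC content was 51.3% for Sv2b, 71.7% for Sv2c and 50.7% for Rab3c, against a median of 52.7% over all promoters. RefSeq promoters were matched for 39 of the 51 genes, with 48 windows in all. A GC box was present in 33 of these 48 windows (68.8%) and in 35.7% of 32851 promoters of the same length. An E-box was present in 12 of 48 (25.0%) and in 16.3% of all promoters. The cyclic AMP response element was present in 3 of 48 (6.25%), those of Napa, Sh3gl2 and Syn1, and in 1.79% of all promoters. No motif contains another, and a match is a description of letters only.

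Depth differed widely between libraries. Levels are given as CPM, counts scaled to a common library size with TMM (trimmed mean of M values) factors. Dissociated libraries held 65887 to 4782767 counts and control libraries 1285654 to 6646655. The 51 genes took 1.07% to 2.65% of the counts in dissociated and 1.73% to 2.60% in control libraries. A count of 0 allows a level of up to 45.5 CPM in the shallowest library, dissociated DG replicate 3, and up to 0.451 CPM in the deepest; these limits cover counting error only. Dissociated CA1 replicates 2 and 3 and dissociated DG replicate 3 each had fewer than 500000 counts and are called shallow.

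Markers of the subregions, none of them among the 51 genes, went against the label in 3 libraries. The library labelled CA1 dissociated replicate 3 had 6.60 CPM of Fibcd1 and 26.4 CPM of Mpped1, which mark CA1 pyramidal cells, and 205 CPM of Bok, which marks CA3. The libraries labelled CA3 dissociated replicate 1 and CA3 control replicate 1 had 735 and 829 CPM of Fibcd1 and 25.5 and 18.9 CPM of Bok. The library labelled CA3 control replicate 4 was intermediate, with 272 CPM of Fibcd1 and 133 CPM of Bok. Over the whole list of 8 CA1 markers, the summed level was 142 CPM in CA1 dissociated replicate 3, against 2127 to 3348 CPM in the other libraries labelled CA1. It was 1975 and 2513 CPM in CA3 dissociated and CA3 control replicate 1, and 284 and 968 CPM in CA3 dissociated and CA3 control replicate 4. The 6 CA3 markers summed to 828 CPM in CA1 dissociated replicate 3 (187 to 631 CPM in the other CA1 libraries), to 570 and 349 CPM in the 2 CA3 libraries numbered 1 and to 1049 and 928 CPM in those numbered 4. The resemblance to CA1 of those numbered 1 was not complete, with Wfs1, another CA1 marker, at 142 and 178 CPM, against 287 to 959 CPM in the CA1 libraries other than dissociated replicate 3. The library labelled DG control replicate 2 held 105 CPM of Prox1, a granule cell marker, against 351 CPM in DG control replicate 3. It also held 177 CPM of Neurod6, a pyramidal cell gene, against 1.28 CPM in replicate 3, and 210 CPM of Bok. Its 8 granule cell markers summed to 768 CPM, against 2636 CPM in replicate 3, and its 6 CA3 markers to 450 CPM, against 106 CPM. Its 8 CA1 markers summed to 167 CPM, close to the 156 CPM of replicate 3. It also had the highest DG levels of Calb2 (68.9 CPM, against 0.80 CPM in replicate 3) and Drd2 (13.9 CPM, against 0.16 CPM), markers of the mossy cells of the hilus, which is part of DG. DG dissociated replicate 3, the shallowest library, was mixed as well. Its granule cell markers summed to 890 CPM, against 2404 CPM in DG dissociated replicate 4, and its CA1 markers to 437 CPM, against 164 CPM. Groups are kept as labelled throughout. Results are also given without the 3 libraries that go against their label and DG control replicate 2, which leaves 10 libraries. DG dissociated replicate 3 and CA3 control replicate 4 stay in that set, so it is not free of mixed libraries.

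**Figure D1:**
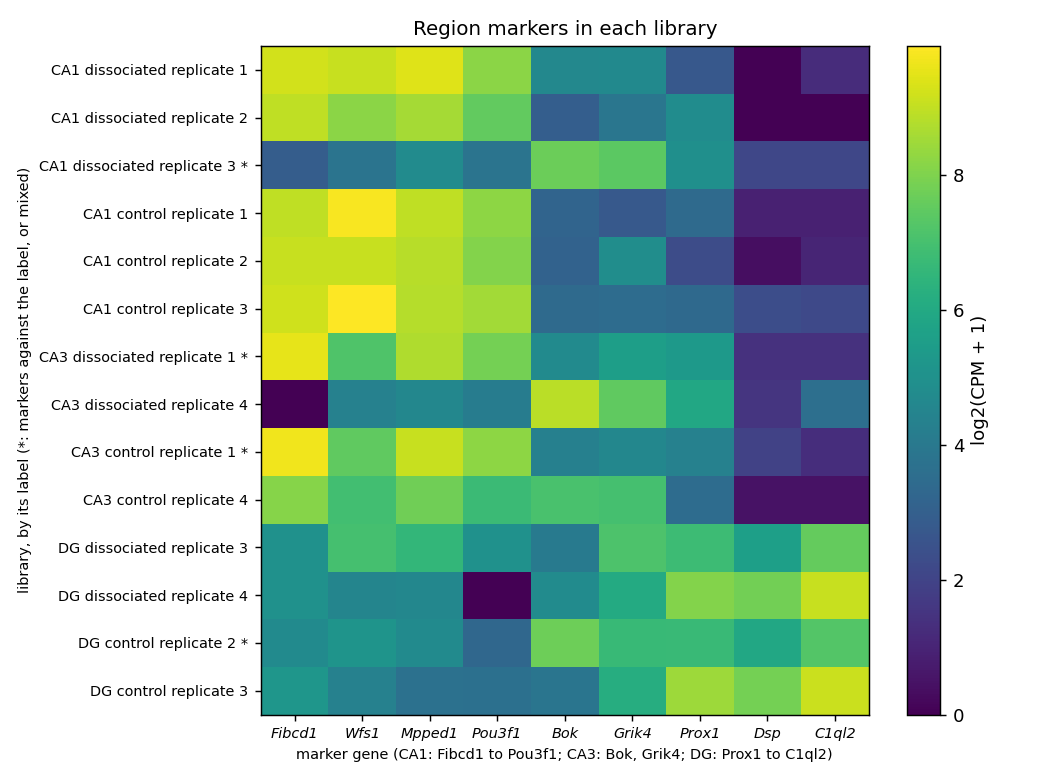
Levels of subregion marker genes, as log2(CPM + 1), in each of the 14 libraries grouped by labelled region. Stars mark the 4 libraries left out of the set of 10 libraries, whose markers go against the label or are mixed. DG dissociated replicate 3, also mixed, and CA3 control replicate 4, intermediate, have no star. Fibcd1 is at 735 and 829 CPM in 2 libraries labelled CA3 and at 6.60 CPM in 1 library labelled CA1.

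The abundance of the 51 genes spanned a wide range, from core fusion and vesicle proteins at the top to rare isoforms of a family. Levels are compared between genes only in TPM, the authors' transcript abundance scaled for length and depth. In control tissue the highest was Snap25, the plasma membrane SNARE, at 1602 ± 529 TPM (SD, n = 7), against 1141 TPM on average in dissociated tissue. Next were Slc17a7, the vesicular glutamate transporter of hippocampal principal cells, at 1484 ± 272 TPM, and Dnm1, the dynamin that pinches off endocytic vesicles, at 1164 ± 206 TPM. Syp, an abundant tetraspanning vesicle protein, was at 1029.7 ± 244.0 TPM and Vamp2, the vesicle SNARE, at 847 ± 111 TPM. The spread of Snap25 over the control libraries is larger than its distance from Slc17a7, so the order of these top genes is not resolved.

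Paralogs of a family differed widely in level. Among the Rab3 GTPases, Rab3a was at 787 ± 160 TPM in control tissue, Rab3c at 106 ± 59.5 TPM, Rab3b at 42.6 ± 30.2 TPM and Rab3d at 16.6 ± 7.66 TPM. Of the synaptotagmins, Syt1, the fast calcium sensor of forebrain release, was highest at 671 ± 194 TPM, and Syt2, its counterpart in fast-firing neurons, was at 6.66 ± 6.59 TPM. Sv2a and Sv2b were at 194 ± 44.6 and 171 ± 84.4 TPM and Sv2c at 6.92 ± 10.4 TPM in control libraries. Of the priming factors, Unc13a was at 200.0 ± 62.6 TPM and Unc13c, a paralog best known from cerebellar granule cells, was lowest of all 51 at 1.40 ± 1.25 TPM. Slc17a6, the second vesicular glutamate transporter, was at 1.93 ± 2.54 TPM in control libraries, close to Unc13c and far below Slc17a7. Snap25 stood at the 99.7th percentile of tested genes by control TPM and Unc13c at the 2.69th.

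**Figure D2:**
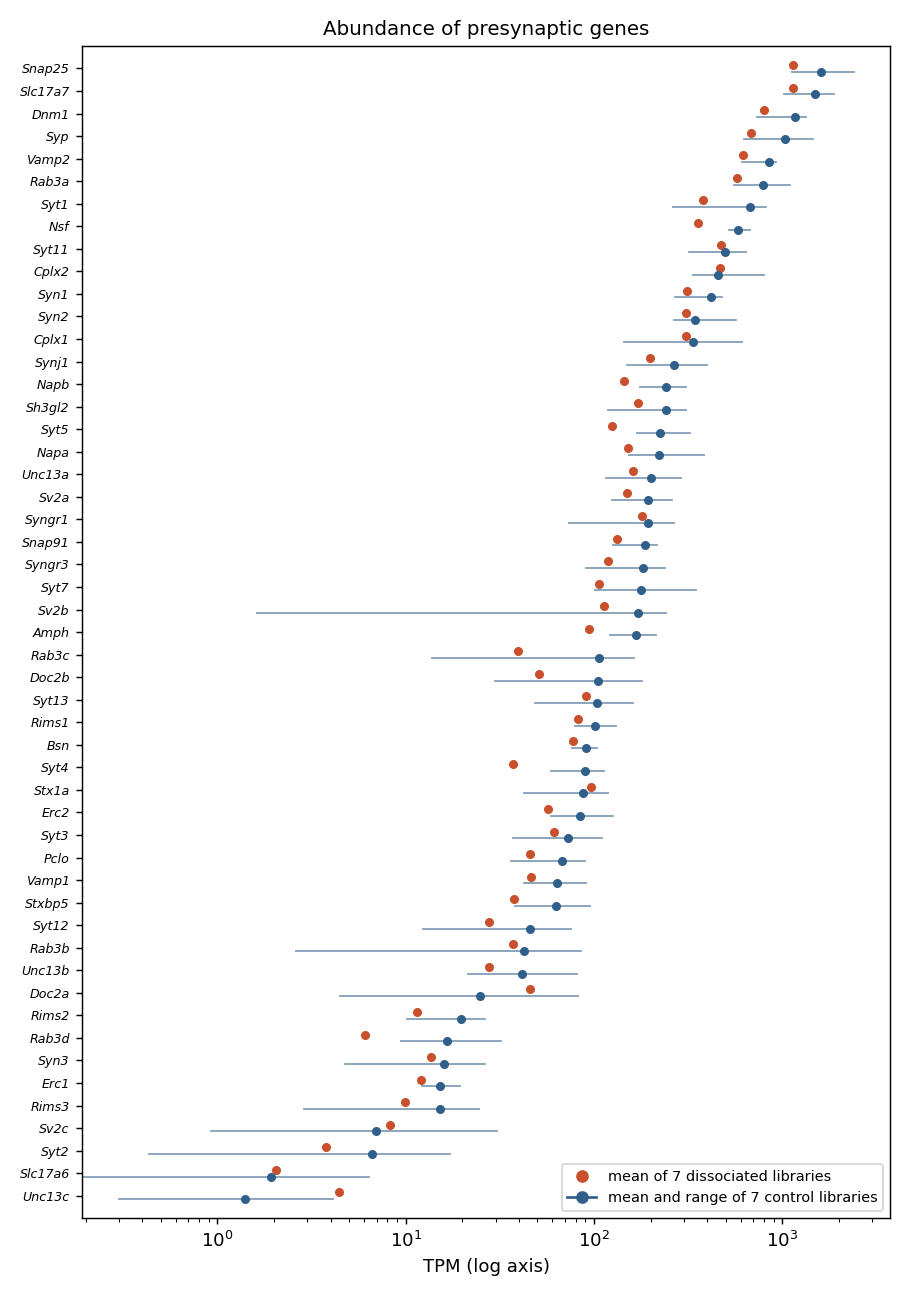
Abundance of the 51 genes in TPM on a log axis, ordered by their mean in control libraries. The mean and range over the 7 control libraries are in blue and the mean of the 7 dissociated libraries in red. Snap25 and Slc17a7 are highest and Slc17a6 and Unc13c lowest; the lowest control value of Slc17a6 is 0, so its line runs off the axis.

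None of the 51 genes passed the test between dissociated and control tissue. In edgeR's quasi-likelihood test with region as a covariate, 0 of 51 had a Benjamini-Hochberg adjusted p under 0.05, where 0.773% of all tested genes passed. At an unadjusted p under 0.05 there were 5 of 51 (9.80%), against 12.4% of all tested genes. DESeq2 called 1 of the 51 (3.66% of all tested genes), and limma on TPM called 0 (0.421%). The log2 fold change, dissociated over control, was negative for 41 of 51 (80.4%), against 58.1% of all genes, with a median of −0.25 for the 51 and −0.11 for all genes. With relative log expression (RLE) scaling both medians moved up, to −0.15 and −0.01, with 37 of 51 negative. In limma on log2(TPM + 1) both medians were −0.64, with 48 of 51 negative. In the 10 libraries edgeR also called 0 of 51, where 0.805% of all tested genes passed, with a median of −0.28 for the 51. For each of the 51 genes the dissociated and control libraries overlapped, while 0.283% of all tested genes lay wholly below in dissociated libraries and 0.245% wholly above. In bulk tissue, fewer cells of a type and less RNA per cell cannot be told apart.

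By role, all 7 groups had a negative median. Negative log2 fold changes were found for 2 of 3 synapsins (median −0.10), 5 of 6 vesicle membrane genes (median −0.24) and 8 of 11 synaptotagmins and Doc2 genes (median −0.37). Among SNARE genes 7 of 10 were negative (median −0.18), among Rab3 and active zone genes 12 of 14 (median −0.29), of the glutamate loaders 2 of 2 (median −0.18), and of the endocytosis genes 5 of 5 (median −0.38). No gene of any role group was called in this comparison.

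**Figure D3:**
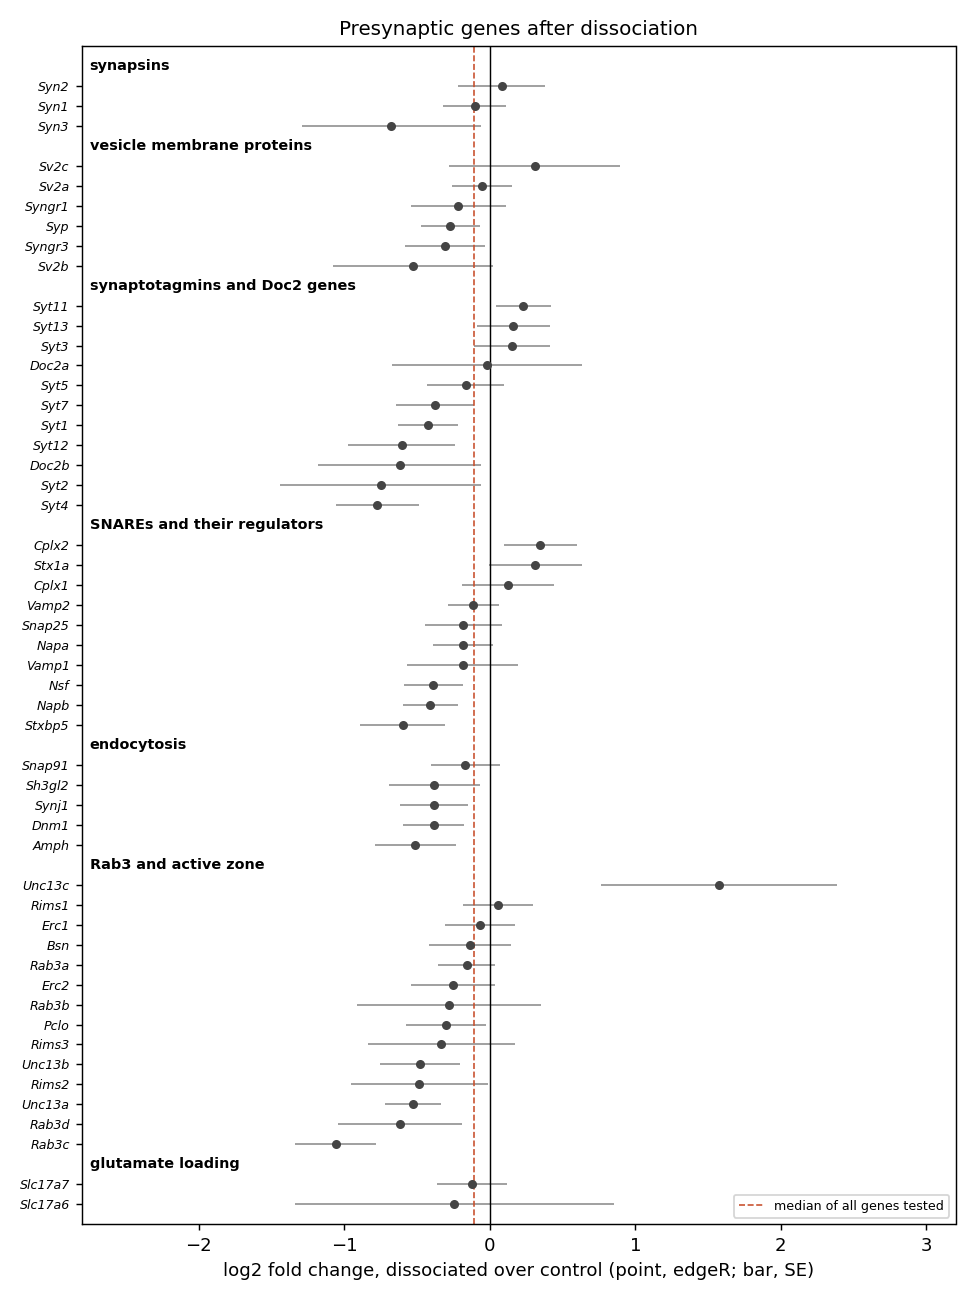
Log2 fold change, dissociated over control, with its standard error for each of the 51 genes, grouped by role; the dashed line is the median of all tested genes, −0.11. Most points lie below 0, Rab3c is the lowest at −1.06, and Unc13c is the highest at 1.58 with a wide error.

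Rab3c had the smallest p of the 51 genes in this comparison. In dissociated libraries Rab3c was at 317, 226 and 165 CPM in CA1, 315 and 266 CPM in CA3, and 78.0 and 51.2 CPM in DG. In control libraries it was at 635, 521 and 559.5 CPM in CA1, 576 and 305 CPM in CA3, and 240.4 and 56.7 CPM in DG. Every dissociated CA1 library lay below every control CA1 library, while in CA3 and DG the groups overlapped. The fitted log2 fold change was −1.06 ± 0.28 (SE), with an edgeR adjusted p of 0.0782. It passed the threshold in DESeq2 (log2 fold change −0.97, adjusted p = 0.0398) and in edgeR without DG control replicate 3 (−1.17, adjusted p = 0.0299). Without the 3 shallow libraries it was −0.87 ± 0.34 (edgeR adjusted p = 0.375). Without the 3 libraries against their label it was −0.93 ± 0.32 (edgeR adjusted p = 0.274), and in the 10 libraries −0.58 ± 0.26 (edgeR adjusted p = 0.410).

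The next smallest p-values belonged to 2 synaptotagmins, a priming factor, an adaptor of SNARE disassembly and an inhibitor of SNARE assembly. Syt4, a synaptotagmin of dense-core vesicles, averaged 81.9 ± 46.4 CPM in dissociated and 158 ± 26.9 CPM in control libraries (SD, n = 7 each). Single libraries were at 0 to 123 CPM in dissociated and 117 to 187 CPM in control tissue, and the log2 fold change was −0.77 ± 0.29 (edgeR adjusted p = 0.255). Unc13a, which primes vesicles for fusion, averaged 452 ± 108 CPM in dissociated (328 to 655) and 669 ± 156 CPM in control libraries (449 to 881), a log2 fold change of −0.53 ± 0.20 (edgeR adjusted p = 0.257). These 2 differences did not pass the test, and their libraries overlapped. Napb, the brain form of the SNAP adaptor of Nsf, was at −0.41 ± 0.19 and Syt1 at −0.42 ± 0.20, with edgeR adjusted p of 0.378 and 0.398. Napb was at 219 to 571 CPM in dissociated and 367 to 582 CPM in control libraries, and Syt1 at 437 to 1417 and 553 to 1556 CPM. Stxbp5 (tomosyn), which holds back SNARE assembly, was at −0.60 ± 0.29 (edgeR adjusted p = 0.410), with 27.4 to 207 CPM in dissociated and 86.5 to 211 CPM in control libraries. For each of these genes the ranges overlapped. The largest positive value was that of Unc13c, 1.58 ± 0.81 (edgeR adjusted p = 0.436), a gene with 0 to 93.7 CPM in dissociated and 0.961 to 18.3 CPM in control libraries.

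Markers of glia were higher on average in dissociated tissue. The edgeR test called 8 of 10 oligodendrocyte markers and 7 of 10 microglia markers higher, but 0 of 10 astrocyte markers, where 0.773% of all tested genes passed. The summed level of 10 oligodendrocyte markers was 1361 to 12320 CPM in dissociated and 594 to 3767 CPM in control libraries, with 10 of 10 higher on average in dissociated tissue. For 10 microglia markers the sums were 589 to 2264 CPM in dissociated and 288 to 508 CPM in control libraries, and for 10 astrocyte markers 2086 to 7404 and 2239 to 3696 CPM, with 10 of 10 higher in both lists. Of 6 excitatory neuron markers 1 was higher, and the sums were 3122 to 10170 CPM in dissociated and 4164 to 7408 CPM in control libraries. No marker of these 4 lists was at 0 in all libraries of either group. The part of these markers in the shift of the 51 genes was not tested.

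Between CA1 and DG, as labelled, 4 of the 51 genes differed: Rab3c and Syt12 were higher in CA1, and Sv2c and Syt13 were lower. The 4 of 51 stand beside a background in which 4.06% of all tested genes passed edgeR's quasi-likelihood test. The log2 fold change, CA1 over DG, was positive for 38 of 51 genes, with a median of 0.18, against −0.04 for all genes. At an unadjusted p under 0.05 there were 15 of 51 (29.4%), against 15.7% of all genes. By role, 1 of 6 vesicle membrane genes was called lower, 1 of 11 synaptotagmins and Doc2 genes higher and 1 lower, and 1 of 14 Rab3 and active zone genes higher. None of the synapsins, SNARE genes, glutamate loaders or endocytosis genes was called. The glutamate loader Slc17a6 had the largest positive log2 fold change, 4.06, from 119 counts in CA1 and 2 counts in DG. The ratio of depth-scaled counts was 29.1, with an exact 95% interval of 7.87 to 243 that covers counting error only. Its libraries overlapped, since 1 count in DG dissociated replicate 3 gave 15.6 CPM, above the highest CA1 value of 13.7 CPM. Slc17a6 passed the threshold in DESeq2 (3.65, adjusted p = 0.0240). It also passed in edgeR without the 3 shallow libraries, which leaves out that DG library (5.74, adjusted p = 0.0316).

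Rab3c (ENSMUSG00000021700, 13:110054187-110280996 in GENCODE M21) averaged 404 ± 194 CPM in CA1 (SD, n = 6) and 107 ± 90.0 CPM in DG (n = 4). Of the DG values given above, only the library labelled DG control replicate 2, at 240.4 CPM, reached into the CA1 range. Its log2 fold change was 1.97 ± 0.36 (edgeR adjusted p = 0.00207). It was called in each of the 14 fits that left out 1 library.

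Syt12 (ENSMUSG00000049303, 19:4445908-4477447), a synaptotagmin without calcium binding, was at 102, 47.9 and 42.9 CPM in dissociated and 81.8, 72.7 and 91.3 CPM in control CA1. In DG it was at 31.2 and 0 CPM in dissociated and 38.1 and 20.8 CPM in control libraries, from 2, 0, 52 and 130 counts. The 6 CA1 libraries all lay above the 4 DG libraries. This gave a log2 fold change of 2.00 ± 0.49 (edgeR adjusted p = 0.0211). The call was lost when CA1 control replicate 3 or DG control replicate 3 was left out, with edgeR adjusted p of up to 0.107, and in limma on TPM (2.64, adjusted p = 0.0505).

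Sv2c (ENSMUSG00000051111, 13:95954594-96132577), the Sv2 paralog of restricted expression, was at 2.06, 34.2 and 6.60 CPM in dissociated and 12.5, 3.85 and 8.06 CPM in control CA1. In DG it was at 31.2 and 131 CPM in dissociated and 21.3 and 119.9 CPM in control libraries. DG dissociated replicate 4 and DG control replicate 3 stood far above all CA1 libraries, and the other 2 DG libraries overlapped with CA1. The fitted log2 fold change was −3.37 ± 0.68 (edgeR adjusted p = 0.00444). Without DG control replicate 3 it was −2.57 (edgeR adjusted p = 0.128), and limma on TPM gave −2.27 (adjusted p = 0.143).

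Syt13 (ENSMUSG00000027220, 2:92915098-92956058), another synaptotagmin that lacks calcium binding, was at 92.9, 75.2 and 205 CPM in dissociated and 87.2, 127 and 77.4 CPM in control CA1. In DG it was at 125 and 377 CPM in dissociated and 292 and 286 CPM in control libraries. The highest CA1 value came from the library labelled CA1 dissociated replicate 3, and only this library and CA1 control replicate 2 reached the lowest DG library. Its log2 fold change was −1.37 ± 0.30 (edgeR adjusted p = 0.00832). Without DG control replicate 3 it was −1.26 (edgeR adjusted p = 0.0538), and limma on TPM gave −1.20 (adjusted p = 0.164).

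Sv2b (ENSMUSG00000053025, 7:75114894-75309262) did not pass the test, although its CA1 and DG libraries did not overlap. It was at 319, 321 and 594 CPM in dissociated and 463, 517 and 436 CPM in control CA1. In DG it was at 140.5 and 3.31 CPM in dissociated and 289.5 and 4.00 CPM in control libraries, so that 2 DG libraries were near 0 and 2 were not. The 140.5 CPM rest on 9 counts of the shallowest library and the 289.5 CPM on 395 counts of the library labelled DG control replicate 2. This gave a log2 fold change of 2.24 ± 0.73 (edgeR adjusted p = 0.0916). It passed the threshold in limma on TPM (3.74, adjusted p = 0.0428) and in edgeR without the filter on low counts (2.30, adjusted p = 5.83e-11). Beside Sv2b and Syt12, the only gene without overlap was Erc1, an active zone scaffold, which was lower in each CA1 library than in each DG library. The highest CA1 value of Erc1 was 46.6 CPM. The lowest DG value was 46.8 CPM, from 3 counts of the shallowest library, so this separation is not resolved. Of all tested genes, 1.87% lay wholly above and 1.59% wholly below in CA1.

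Napa, the adaptor that brings Nsf to the SNARE complex, had the smallest p among the genes that did not pass. It was at 189.5, 150.4 and 208 CPM in dissociated and 177, 209 and 192 CPM in control CA1. DG libraries had 156 and 337 CPM in dissociated and 312 and 437 CPM in control libraries. The shallowest library, DG dissociated replicate 3, lay within the CA1 range and the other 3 DG libraries above it. Its log2 fold change was −0.77 ± 0.25 (edgeR adjusted p = 0.0900). DESeq2 called it (−0.83, adjusted p = 0.00357), as did edgeR without the 3 shallow libraries (−0.81, adjusted p = 0.0445).

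Markers of other cell types differed on average between CA1 and DG, but few were called and the summed ranges overlapped in each list. The edgeR test called 2 of 10 oligodendrocyte markers and 1 of 10 astrocyte markers lower in CA1. It called 2 of 10 interneuron markers higher and 0 of 10 microglia markers, where 4.06% of all tested genes passed. Of 10 oligodendrocyte markers 0 were higher in CA1, with sums of 594 to 5795 CPM in CA1 and 1781 to 9225 CPM in DG. Of 10 astrocyte markers 0 were higher in CA1, with sums of 2086 to 4169 and 2441 to 6307 CPM, and of 10 microglia markers 10 were higher in CA1, with sums of 288 to 2264 and 331 to 1342 CPM. Of 10 inhibitory interneuron markers 8 were higher in CA1, with sums of 573 to 957 CPM in CA1 and 421 to 1046 CPM in DG. Of these 4 lists only Vip, an interneuron marker, was at 0 in all DG libraries, and none was at 0 in all CA1 libraries. The part of these markers in the regional results was not tested.

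Between CA3 and DG, as labelled, 2 of the 51 genes differed: Rab3c was higher in CA3 and Syn3, the least abundant synapsin, was lower. Of all tested genes, 1.77% passed. The log2 fold change, CA3 over DG, was positive for 35 of 51 genes, with a median of 0.42, against 0.04 for all genes, and 17 of 51 (33.3%) had an unadjusted p under 0.05, against 12.03% of all genes. CA1 and CA3 were set against the same 4 DG libraries, so these results and those of CA1 are not independent.

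Rab3c averaged 365 ± 142 CPM in CA3 and 107 ± 90.0 CPM in DG (SD, n = 4 each), and the 4 CA3 libraries all lay above the 4 DG libraries. The fitted log2 fold change was 1.92 ± 0.38 (edgeR adjusted p = 0.00856), and it was called in each of the 14 fits that left out 1 library. It was not called without the 3 libraries against their label (1.63, edgeR adjusted p = 0.0930) or in limma on TPM (1.94, adjusted p = 0.0981). Syn3 (ENSMUSG00000059602, 10:86055125-86498896) was at 1.23 and 4.65 CPM in dissociated and 7.77 and 5.83 CPM in control CA3. In DG it was at 62.4 and 67.8 CPM in dissociated and 16.1 and 22.7 CPM in control libraries, all above CA3. The 62.4 CPM rest on 4 counts of the shallowest library, and the dissociated CA3 values on 3 and 5 counts. The log2 fold change of Syn3 was −3.18 ± 0.79 (edgeR adjusted p = 0.0383), with values of −3.75 to −2.14 when 1 library at a time was left out. The call stood in 3 of those 14 fits, which left out DG control replicate 2, CA1 dissociated replicate 2 or CA1 dissociated replicate 3. It was also lost in limma on TPM (−2.64, adjusted p = 0.321) and without the 3 libraries against their label (−2.74, edgeR adjusted p = 0.175). Sv2b and Rims3, a short RIM protein, also had no overlap, with all CA3 libraries above DG. Of all tested genes, 3.74% lay wholly above and 1.93% wholly below in CA3.

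Near the threshold, Sv2c was at −2.64 ± 0.71 (edgeR adjusted p = 0.0583), Syt1 at 0.94 ± 0.27 (edgeR adjusted p = 0.0797) and Sv2b at 2.53 ± 0.77 (edgeR adjusted p = 0.103). In CA3 Sv2c was at 29.2 and 0.930 CPM in dissociated and 10.2 and 10.8 CPM in control libraries, and Sv2b at 486 and 509 CPM in dissociated and 505 and 662 CPM in control libraries. Syt2 was at 3.09 ± 1.00 (edgeR adjusted p = 0.132). Sv2c and Syt1 passed the threshold in DESeq2 (−2.67, adjusted p = 0.0292, and 0.86, adjusted p = 0.0365). Syt1 was at 1277 and 1417 CPM in dissociated and 1414 and 1556 CPM in control CA3, and at 437 and 698 CPM in dissociated and 1308 and 553 CPM in control DG. Only DG control replicate 2, at 1308 CPM, reached the CA3 range. Syt2 was at 46.5 and 14.9 CPM in dissociated and 47.6 and 30.0 CPM in control CA3, and at 46.8 and 1.65 CPM in dissociated and 6.60 and 1.44 CPM in control DG. In DG its 46.8 CPM came from the shallowest library. Inhibitory interneuron markers were higher in CA3 for 10 of 10, with summed levels of 1102 to 1425 CPM in CA3 and 421 to 1046 CPM in DG. As above, Vip was at 0 in all DG libraries, and no interneuron marker was at 0 in all CA3 libraries. Oligodendrocyte markers were also higher in CA3 for 10 of 10, with sums of 3312 to 12320 CPM in CA3 and 1781 to 9225 CPM in DG, and none was at 0. The edgeR test called 3 of the 10 interneuron markers and 0 of the 10 oligodendrocyte markers, where 1.77% of all tested genes passed. The part of both lists in these values was not tested.

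**Figure D4:**
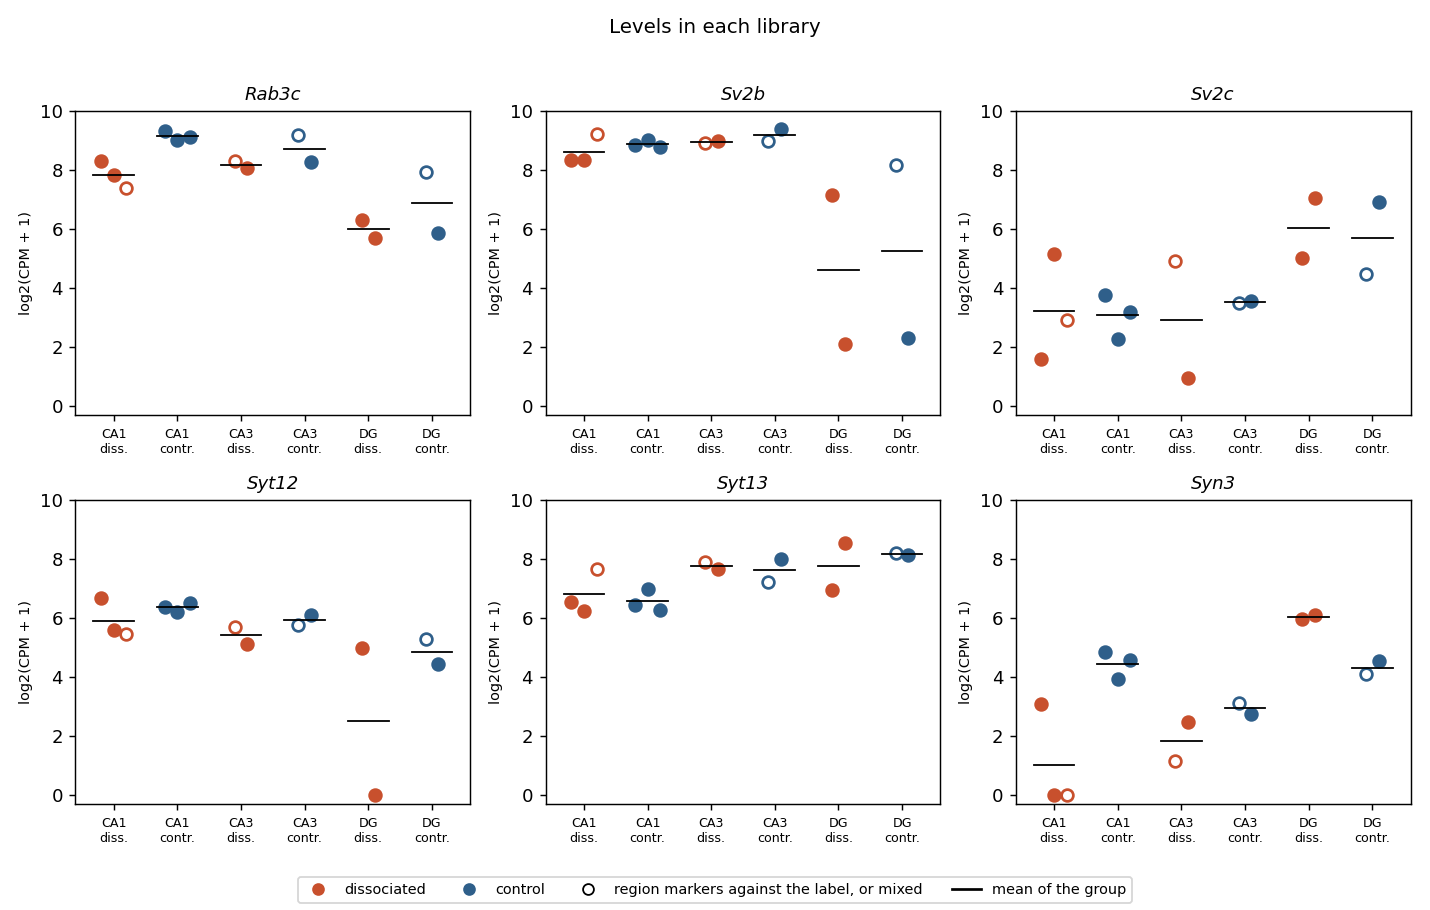
Levels of Rab3c, Sv2b, Sv2c, Syt12, Syt13 and Syn3, as log2(CPM + 1), in each library by region and treatment. Open circles are the 4 libraries left out of the set of 10 libraries for their region markers, and bars are group means. In DG dissociated replicate 4 and DG control replicate 3, Sv2b is at 3.31 and 4.00 CPM and Sv2c at 131 and 119.9 CPM.

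With the 4 doubted libraries left out, a choice made after the markers were seen, many more of the 51 genes were called against DG. The calls from the 10 libraries are not independent of that choice. DG control replicate 2, left out for its markers, also had the highest DG level of Sv2b (289.5 CPM), Rab3c (240.4 CPM) and Syt1 (1308 CPM). CA3 control replicate 4, with 968 CPM of CA1 markers, and DG dissociated replicate 3 were kept. The 10 remaining libraries were 2 dissociated and 3 control for CA1, 1 and 1 for CA3, and 2 and 1 for DG. Between CA1 and DG 12 of 51 passed edgeR's test, where 6.36% of all tested genes did, and 10 of the 12 were higher in CA1. Between CA3 and DG 18 of 51 passed, where 3.92% of all tested genes did, and 15 of the 18 were higher in CA3. Leaving out only the 3 libraries that go against their label gave the same 4 genes for CA1 over DG (4.51% of all genes) and 0 for CA3 over DG (0.594%). Leaving out only DG control replicate 2 gave 13 of 51 for CA1 over DG (5.53%) and 13 of 51 for CA3 over DG (4.26%). Leaving out only DG control replicate 3 gave 1 of 51 in each comparison, Rab3c, at 1.70 for CA1 over DG (1.54% of all genes passed) and 1.64 for CA3 over DG (0.415%).

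Among the vesicle membrane genes, Sv2b then had the largest positive log2 fold changes, 5.71 ± 0.79 for CA1 over DG (edgeR adjusted p = 3.96e-05) and 6.17 ± 0.83 for CA3 over DG (edgeR adjusted p = 7.13e-05). Its paralog Sv2c was lower, at −4.07 ± 0.64 for CA1 over DG and −4.22 ± 0.85 for CA3 over DG. Syngr1, a synaptogyrin, was higher by 1.40 in CA1 and 2.17 in CA3, and Syp by 0.86 and 1.38, on the log2 scale. Of the 6 vesicle membrane genes 3 were higher and 1 lower than in DG in both regions.

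Among the Rab3 and active zone genes, Rab3c was higher by 2.98 ± 0.36 in CA1 and 2.38 ± 0.38 in CA3 on the log2 scale. Rims3, which acts on presynaptic calcium channels, was higher by 3.39 ± 0.72 in CA1 and 4.51 ± 0.78 in CA3. Of the synaptotagmins and Doc2 genes, Syt1 was higher by 1.06 in CA1 and 1.36 in CA3, Syt12 was higher in CA1 (2.68 ± 0.56) and Syt13 lower in CA1 (−1.52 ± 0.30). Doc2b, a high-affinity calcium sensor, was lower in CA3 (−3.15).

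Of the SNARE genes, Cplx1, a complexin that clamps the SNARE complex, was higher by 1.18 in CA1 and 2.26 in CA3, and Stx1a, the plasma membrane syntaxin, by 1.34 and 1.46. Vamp1 (2.06), the second vesicle SNARE, and Snap25 (1.20) were higher in CA3. Of the endocytosis genes, Sh3gl2 (endophilin A1) was higher by 1.70 in CA1 and 2.06 in CA3, and Amph (1.47), the membrane-bending amphiphysin, and Dnm1 (1.08) were higher in CA3. Slc17a7 (1.38) and Syn2 (1.16) were higher and Syn3 (−3.23 ± 0.88) was lower in CA3. Whether any of these genes differed more from DG in CA3 than in CA1 is the comparison of CA1 with CA3, given next.

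**Figure D5:**
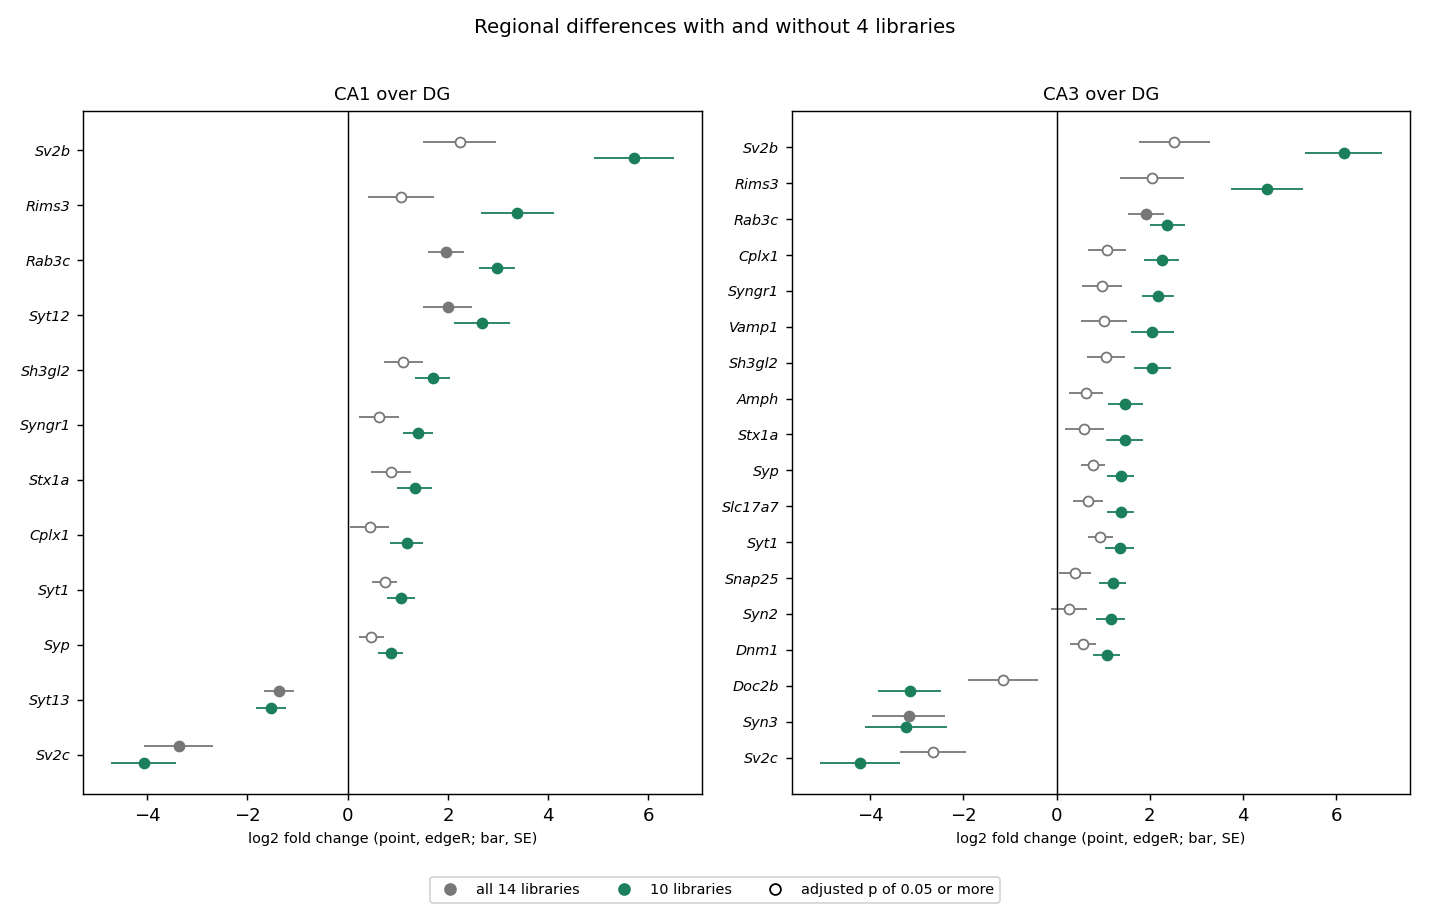
Log2 fold changes of CA1 over DG and of CA3 over DG for each gene called in either set, from all 14 libraries in grey and from the 10 libraries in green; open symbols have an adjusted p of 0.05 or more. For Sv2b the values over DG are 2.24 in CA1 and 2.53 in CA3 with all libraries, and 5.71 in CA1 and 6.17 in CA3 with 10 libraries.

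Between CA1 and CA3, as labelled, 0 of the 51 genes passed edgeR's test, where 0.115% of all tested genes did. At an unadjusted p under 0.05 there were 6 of 51 (11.8%), against 5.37% of all genes. DESeq2 called 1 of the 51 (0.429% of all genes) and limma on TPM called 0 (0%). The log2 fold change, CA1 over CA3, was negative for 34 of 51 genes, with a median of −0.17, against −0.06 for all genes. All 6 vesicle membrane genes were negative, with values of −0.72 to −0.26.

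The smallest p belonged to Slc17a6, the glutamate transporter typical of thalamic and other subcortical neurons. It was at 2.06, 13.7 and 3.30 CPM in dissociated and 7.60, 11.8 and 4.48 CPM in control CA1, against 0 and 0 CPM in dissociated and 0.486 and 0 CPM in control CA3. Summed over libraries, this was 119 counts in CA1 and 1 count in CA3, a ratio of depth-scaled counts of 58.0 with an exact 95% interval of 10.2 to 2310.0 that covers counting error only. Every CA1 value exceeded every CA3 value, but a 0 in CA3 dissociated replicate 4 allows up to 2.51 CPM, above the 2.06 CPM of CA1 dissociated replicate 1, so that pair is not resolved at this depth. The 13.7 and 3.30 CPM of CA1 dissociated replicates 2 and 3 rest on 2 and 1 counts, so these libraries are not firmly separated from CA3 either. Of the 51 genes only Slc17a6 had all CA1 values above CA3, where 0.375% of all tested genes did, and only Rims3 had all below, where 1.26% did. The log2 fold change of Slc17a6 was 5.22 ± 1.40 (edgeR adjusted p = 0.228), and DESeq2 called it (5.47, adjusted p = 0.0149).

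Next by p were Syt13 at −0.95 ± 0.30 (edgeR adjusted p = 0.417), with 111 ± 49.7 CPM in CA1 (SD, n = 6) and 213 ± 46.9 CPM in CA3 (n = 4), and Syt2. Syt13 was at 239 and 204 CPM in dissociated and 151 and 258 CPM in control CA3, beside the CA1 values given above, of which only that of dissociated replicate 3 reached the CA3 range. Syt2 was at 4.11, 0 and 0 CPM in dissociated and 4.03, 26.1 and 8.95 CPM in control CA1, and averaged 7.19 ± 9.82 CPM in CA1 and 34.7 ± 15.5 CPM in CA3 (−2.12, edgeR adjusted p = 0.508). Of the CA1 libraries only control replicate 2, at 26.1 CPM, reached the CA3 range. A 0 in CA1 dissociated replicate 2 allows up to 22.2 CPM, above the lowest CA3 value of 14.9 CPM, so that library is not resolved from CA3.

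Rims1, an active zone organiser of priming, was at 84.9, 82.1 and 211 CPM in dissociated and 134, 128 and 114 CPM in control CA1. In CA3 it was at 188 and 271 CPM in dissociated and 141 and 202 CPM in control libraries, a log2 fold change of −0.67 ± 0.28 (edgeR adjusted p = 0.769). Only the library labelled CA1 dissociated replicate 3 reached the CA3 range. Syn3 was at 7.54, 0 and 0 CPM in dissociated and 27.7, 14.4 and 23.3 CPM in control CA1, beside the CA3 values given above, a log2 fold change of 1.5 ± 0.69 (edgeR adjusted p = 0.880). Its 2 zeros are those of the shallow CA1 libraries. Vamp1 was at 47.0, 27.4 and 145 CPM in dissociated and 58.1, 61.9 and 48.8 CPM in control CA1, and at 101 and 149.7 CPM in dissociated and 90.3 and 126 CPM in control CA3. It averaged 64.7 ± 41.2 CPM in CA1 and 117 ± 26.6 CPM in CA3 (−0.88, edgeR adjusted p = 0.916), and again only CA1 dissociated replicate 3 reached the CA3 range. Syt2 and Vamp1 are known from fast-spiking interneurons as well. Inhibitory interneuron markers summed to 573 to 957 CPM in CA1 and 1102 to 1425 CPM in CA3, with 1 of 10 higher in CA1. By mean CPM, oligodendrocyte markers were higher in CA1 for 0 of 10 (sums of 594 to 5795 CPM in CA1 and 3312 to 12320 CPM in CA3), astrocyte markers for 1 of 10 (2086 to 4169 and 2623 to 7404 CPM) and microglia markers for 10 of 10 (288 to 2264 and 401 to 1495 CPM). In the edgeR fit only 7 of the 10 microglia markers had a positive log2 fold change, with a median of 0.07, and 0 were called. No marker of these 4 lists was at 0 in all libraries of either region, and their part in these values was not tested.

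In the 10 libraries 2 of 51 genes differed between CA1 and CA3, where 1.31% of all tested genes passed edgeR's test. Syt13 was lower in CA1 (−1.25 ± 0.32, edgeR adjusted p = 0.0498) and Doc2b was higher (3.12 ± 0.64, edgeR adjusted p = 0.00931). In the 5 CA1 libraries of that set Doc2b was at 251, 137, 349, 219.7 and 271 CPM, and in the 2 CA3 libraries at 0 and 65.8 CPM. The library labelled CA1 dissociated replicate 3, left out here, had 3.30 CPM of Doc2b. The libraries labelled CA3 dissociated replicate 1 and CA3 control replicate 1, also left out, had 133 and 156 CPM.

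Within each region the comparison of dissociated with control rests on 2 or 3 libraries a side. Within CA1 0 of 51 genes passed edgeR's test (0.191% of all genes did), within CA3 0 of 51 (0%), and within DG 0 of 51 (0.161%). At an unadjusted p under 0.05 there were 8 in CA1 (15.7%, against 11.2% of all genes), 0 in CA3 (4.00% of all genes) and 11 in DG (21.6%, against 14.1%). DESeq2 called 0 in each region, and limma on TPM called 0 in CA1, 0 in CA3 and 1 in DG (2.44% of all genes), which was Amph. Dissociated libraries lay wholly below control libraries for 6 of the 51 genes in CA1 (11.8%), 10 in CA3 (19.6%) and 14 in DG (27.5%). Of all tested genes 16.0% did so in CA1, 18.2% in CA3 and 32.2% in DG, so the shares of the 51 are near the background. Dissociated libraries lay wholly above for 1 gene in CA1, 2 in CA3 and 1 in DG, against 7.16%, 15.7% and 8.25% of all tested genes. In the 10 libraries 0 of 51 were called within CA1 (0.219% of all genes) and 0 within DG (0.0732%). Within CA3 (0.102%) 1 was called, Doc2b, from 1 dissociated and 1 control library with 0 and 65.8 CPM; the spread in that test was taken from the other groups and assumed to apply to these 2 libraries.

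Within CA1 the smallest p was that of Rab3c, at 236 ± 76.7 CPM in dissociated and 572 ± 58.2 CPM in control libraries (SD, n = 3 each), a log2 fold change of −1.25 ± 0.42 (edgeR adjusted p = 0.269). Cplx1 was the gene above in every dissociated CA1 library, at 298, 451 and 535 CPM in dissociated and 214, 243 and 241 CPM in control libraries. In that region the library labelled CA1 dissociated replicate 3, with CA3 markers, had the highest Cplx1 value. Within DG the smallest p belonged to Amph, at 62.4 and 74.4 CPM in dissociated and 331 and 182 CPM in control libraries (−1.84 ± 0.50, edgeR adjusted p = 0.124). Sh3gl2 was at 109 and 41.3 CPM in dissociated and 339 and 141 CPM in control DG (−2.03 ± 0.59, edgeR adjusted p = 0.143). For both genes the highest DG value came from the library labelled DG control replicate 2, which had more Neurod6, Bok, Calb2 and Drd2 than the other DG libraries. Syn3 went the other way, at 62.4 and 67.8 CPM in dissociated and 16.1 and 22.7 CPM in control DG (1.74, edgeR adjusted p = 0.331). Its 62.4 CPM rest on 4 counts of the shallowest library.

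A test of whether the treatment effect differed between regions called 0 of 51 genes, and of all tested genes 0% passed in edgeR. At an unadjusted p under 0.05 there were 7 of 51 (13.7%), against 8.51% of all genes, and DESeq2 and limma called 0. In the 10 libraries edgeR called 0 as well. Syn3 had the smallest p in that test (edgeR adjusted p = 0.451).

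Transcript estimates were available for 180 transcripts of the 51 genes, of which 128 passed the filter. None of the 128 was called by edgeR for dissociated over control (0.00394% of 25388 tested transcripts were), CA1 over DG (0.0354%), CA3 over DG (0%) or CA1 over CA3 (0%). At an unadjusted p under 0.05 there were 24 for dissociated over control (18.8%, against 10.6% of all tested transcripts), 17 for CA1 over DG (13.3%, against 7.98%), 22 for CA3 over DG (17.2%, against 7.78%) and 9 for CA1 over CA3 (7.03%, against 5.04%). In the 10 libraries 2 transcripts were called, both for CA1 over DG. Of the 51 genes, 31 had 2 or more transcripts that each held at least 10% of the gene's TPM. Such shares are estimates, since transcripts of 1 gene share most of their sequence.

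Pclo encodes piccolo, a giant scaffold of the active zone. Its longest transcript Pclo-001, of 20084 bases, took 15.4%, 7.37% and 15.8% of the gene's TPM in dissociated CA1 and 8.62%, 8.49% and 7.77% in control CA1. In CA3 the share was 15.6% and 18.3% in dissociated and 10.5% and 14.3% in control libraries. In DG it was 25.1% and 33.5% in dissociated and 21.0% and 27.6% in control libraries, above every CA1 and CA3 library. The 25.1% is that of DG dissociated replicate 3, which had 6 counts of the gene, so that share is not resolved. Syn2-001, a transcript of the synapsin Syn2, took 39.4 ± 12.7% of its gene's TPM in DG, with 23.2 ± 4.85% in CA1 and 24.8 ± 4.17% in CA3 (SD). In DG dissociated replicate 3 it took 55.5%, from 20 counts of the gene. Control DG libraries had 30.5% and 28.1%. These overlapped with the other regions, at 32.2% in CA1 dissociated replicate 2 and 28.8% in CA3 dissociated replicate 1. Between treatments, Syt7-202, a transcript of the slow calcium sensor Syt7, took 10.5 ± 12.9% in dissociated and 25.5 ± 4.50% in control libraries (n = 7 each). Its 0% in CA1 dissociated replicate 2 and DG dissociated replicate 3 rest on 23 and 19 counts of the gene. DG dissociated replicate 4, with 549 counts, was also at 0%. CA3 dissociated replicate 4, at 35.8%, lay above every control library. These shares were singled out after their values were seen and carry no test.

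A list of 89 other presynaptic genes, of which 85 were tested, was set beside the 51. For dissociated over control 0 of 85 were called, with 60 of 85 negative and a median log2 fold change of −0.14. For CA1 over DG 4 were higher and 3 lower (4.06% of all genes were called), and for CA3 over DG 2 were higher and 2 lower (1.77%). Synpr (synaptoporin), a vesicle protein related to Syp, averaged 39.0 ± 51.7 CPM in CA1 and 44.8 ± 14.3 CPM in CA3, against 226 ± 105 CPM in DG. Its log2 fold change was −3.25 ± 0.56 for CA1 over DG (edgeR adjusted p = 0.00131) and −2.59 for CA3 over DG (edgeR adjusted p = 0.0210). Synj2, a paralog of the phosphatase synaptojanin, was higher by 2.53 ± 0.56 in CA1 and 2.56 in CA3, and Cadps2, a priming factor of dense-core vesicles, was higher in CA1 by 2.33 ± 0.40, on the log2 scale. Between CA1 and CA3 0 of 85 were called.

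In the 10 libraries 87 of the 89 were tested, with 10 higher and 4 lower for CA1 over DG (6.36% of all genes were called), 8 higher and 2 lower for CA3 over DG (3.92%), 2 higher and 2 lower for CA1 over CA3 (1.31%), and 0 for dissociated over control (0.805%). Synpr was then at −4.02 ± 0.40 for CA1 over DG and −2.31 ± 0.50 for CA3 over DG on the log2 scale. Among the genes higher than in DG were Slc32a1, the vesicular transporter of inhibitory transmitters, with log2 fold changes of 4.03 ± 0.58 in CA1 and 4.78 ± 0.62 in CA3, and Gad2, which makes GABA, with 2.92 ± 0.50 in CA1 and 3.56 ± 0.55 in CA3. Both are products of inhibitory interneurons, and the part of those cells in the regional values of the 51 genes was not tested.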

How the data were processed

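RNA of 14 bulk samples was sequenced. The submitters' processing notes name FastQC, cutadapt, kallisto and DESeq2, with no role or version. Not given in the sources used here were genome build, annotation and strand. The authors deposited estimated counts and TPM for each transcript, per the file headers. Their gene-level counts were found to be those estimates added up per symbol, then rounded. Groups follow the labels. Gene counts were tested with edgeR 4.0.16 (quasi-likelihood, TMM scaling, filterByExpr with a minimum count of 10) in R 4.3.3, on treatment plus region over all 14 libraries (10 residual degrees of freedom). Within-region contrasts and the treatment-by-region test used 1 mean per region and treatment (8 residual degrees of freedom). Transcript estimates were rounded and tested in the same way. P-values were adjusted by Benjamini-Hochberg over all features tested, with a threshold of 0.05, and the procedure was tested on simulated data. Alternatives were RLE and upper-quartile scaling, no filter, replicate blocks, DESeq2 1.42.0, limma 3.58.1 on log2(TPM + 1), and leaving out libraries. Figures used matplotlib 3.10.9 under Python 3.11.15, and the count ratio used scipy 1.17.1. Values in every library were given, in each comparison between treatments or regions, for the called members, up to 12 by fold change, and otherwise for the 6 with the smallest p (ranges for treatment). Members, lists and tests were chosen with earlier results of these data known. Depth was 65887 to 6646655 counts per library, so low genes are imprecise in the shallowest libraries. The check of pairing by replicate number is given with the alternatives.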

Additional observations from a re-analysis of the deposited data

How the results depend on the processing

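With RLE or upper-quartile scaling all counts of called genes among the 51 stayed within 1.5 times, and no gene named for its small p between treatments or regions reversed direction there under any alternative. Over all genes, RLE gave 154 higher for dissociated over control, against 95 with TMM, and 10 lower within DG, against 16. Without the filter on low counts, 1 gene was called lower for dissociated over control (1.98% of all genes, against 0.773% in the main fit). For CA1 over DG 8 were called, 5 of them higher (5.18%, against 4.06%). For CA3 over DG 9 were higher and 4 lower (3.54%, against 1.77%). For CA1 over CA3 2 were higher and 1 lower (0.73%, against 0.115%). For dissociated over control 1 was called within CA1 (1.56%) and 4 within DG (1.5%). Among transcripts calls were 11 for dissociated over control, 7 for CA1 over DG, 9 for CA3 over DG and 3 for CA1 over CA3. DESeq2 gave 1 lower for dissociated over control (3.66% of all genes called) and 6 for CA1 over DG (7.64%). It also gave 2 higher and 2 lower for CA3 over DG (3.77%), and 1 higher for CA1 over CA3 (0.429%). Limma on TPM gave 0 lower for CA1 over DG (1.26% of all genes called), 0 higher and 0 lower for CA3 over DG (0.13%), and 1 within DG (2.44%). Without the 3 shallow libraries there were 6 for CA1 over DG (5.82% of all genes called) and 2 higher and 2 lower for CA3 over DG (2.66%). Without the 3 libraries against their label, a choice made after the data were seen, there were 0 higher and 0 lower for CA3 over DG; without these and DG control replicate 2 there were 10 higher for CA1 over DG, 15 higher and 3 lower for CA3 over DG, 1 higher and 1 lower for CA1 over CA3, 1 within CA3, and 2 transcripts for CA1 over DG. The shares of all genes for the gene calls without these libraries are given above. Control libraries alone gave 4 higher for CA1 over DG (6.22% of all genes called) and 0 higher and 0 lower for CA3 over DG (1.07%). Dissociated libraries alone gave 0 in each direction for both (0.159% of all genes in each). The cause of these changes was not tested, beyond the fewer libraries fitted.

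Leaving out 1 library at a time gave 0 to 1 lower for dissociated over control, 1 to 11 higher and 0 to 3 lower for CA1 over DG, 1 to 11 higher and 0 to 2 lower for CA3 over DG, and 0 to 1 transcripts for CA1 over DG and CA3 over DG. Both counts of 11 came without DG control replicate 2, and for CA1 over DG the 0 lower came without DG control replicate 3. All other counts stayed at 0 in the 14 fits.

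Whether replicate numbers pair the samples was not settled. In CA1 same-numbered libraries had correlations of deviations of −0.03, 0.01 and 0.02, beside −0.03 to 0.02 for differently numbered ones. Same-numbered libraries had 0.07 in CA3 and −0.16 in DG. With 2 libraries a side, deviations from the group mean mirror each other, so the values of CA3 and DG cannot decide pairing. The 8 CA1 markers summed to 1975 and 2513 CPM in the CA3 libraries numbered 1 and to 284 and 968 CPM in those numbered 4. A replicate block over all libraries gave 1 lower for CA1 over DG, losing Syt13 (edgeR adjusted p = 0.0534). It gave 2 higher, with Sv2b (2.83, edgeR adjusted p = 0.0425) in place of Syt12 (1.89, edgeR adjusted p = 0.0587). There 2.15% of all genes were called, against 4.06% in the main fit. With a block within regions the share of all genes for dissociated over control was 2.91%, against 0.773%, and within CA1 2.29%, against 0.191%. A replicate block within regions gave 4 lower for dissociated over control (Stxbp5, Rab3c, Unc13a and Doc2b), 2 within CA1 (Stxbp5 and Rab3c, lower), 2 within DG (Sv2b and Rab3b, higher) and the same 2 for treatment by region. In DG that block compares only the libraries numbered 3, and Sv2b is at 5.11 there (edgeR adjusted p = 4.96e-06), against −2.27 with all DG libraries and −2.26 without the filter, where it was called lower. Depth limits the low genes: a count of 0 in dissociated DG replicate 3 allows 45.5 CPM.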
